A study of Homo sapiens with 4 samples.

Results

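The expression of 9 genes that restrain cell division or answer to the tumour suppressor p53 was followed in PC3 cells, a line from a human prostate cancer that has no working p53 protein. The genes were the inhibitors of cyclin-dependent kinases CDKN1A, CDKN1B and CDKN2B, the p53 ligase MDM2, the growth arrest genes GADD45A and GADD45B, and the p53 targets ZMAT3, SESN1 and TP53INP1. All 13 array probes carrying a RefSeq accession of these genes were taken, out of 34127 probes on the array, and 9 of 9 genes were among the 14556 genes that were bright enough to be tested. The genes were chosen by their known roles and with their measured differences after knockdown in view, above all the lower level of ZMAT3, so those differences are given below as a description without a test. The change from 48 h to 96 h played no part in the choice and was tested.

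PC3 cells had been infected for 48 h with a lentivirus that encoded an shRNA against ALKBH3, a demethylase of alkylated nucleic acids, or a control shRNA, which the methods name as directed against GFP. Infected cells were then selected with puromycin and collected after 48 h or 96 h, and total RNA was labelled with Cy3 and hybridised to single-colour Agilent arrays. There was 1 array for each shRNA at each time point, 4 in all, so the time points were the only repeat of each shRNA, and nothing in the labels says that they came from separate infections. The cells were infected pools, both arms carried a lentivirus and had been through selection, and the labels leave the ALKBH3 shRNA unspecified. With so few arrays, every value is of limited precision. The limma p-values and SE values rest only on the spread between these arrays, with that of each gene drawn toward the spread pooled over all genes.

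In cells with working p53, damage to DNA stabilises the protein, which then switches on genes that stop the cycle, repair DNA or kill the cell. CDKN1A (p21) and CDKN1B (p27) bind complexes of cyclins with CDKs, and CDKN2B (p15) binds CDK4 and CDK6 themselves. MDM2 marks p53 for degradation and is itself a p53 target, which closes a feedback loop. Many of these genes also have other inputs, such as TGF-beta for CDKN2B and NF-kB for GADD45B, so they can be transcribed in cells without p53.

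The arrays were alike in brightness. The intensity at the 75th percentile was between 2150 and 2394, between 67% and 70.9% of probes were well above background, and 0 spots were saturated. Levels below are log2 intensities relative to the 75th percentile of the same array, so a level of 0 is that percentile and negative levels are dimmer. They compare arrays for 1 probe and not different probes. The knockdown itself was seen on both ALKBH3 probes. The brighter of them on average read -0.74 and -0.89 with the control shRNA at 48 h and 96 h and -2.48 and -2.41 with the ALKBH3 shRNA. Of the markers of this line, KRT8, KRT18, EPCAM and CDH1 were well above background on all 4 arrays. EPCAM and CDH1 were higher with the ALKBH3 shRNA by 0.98 and 0.74. Both were past the limma threshold only with the time point as a block (adjusted p = 0.0264 and 0.0472). The markers were added after their values were seen, so these p-values are descriptive. Of genes taken as low or lost in PC3, every probe for KLK3 and CTNNA1 was not well above background, whereas TMPRSS2 was on all 4 arrays, with levels between 1.22 and 1.88. Each of the 5 markers of leukocytes, endothelium and fibroblasts examined (PTPRC, CD3E, CD68, PECAM1 and COL1A1) also had a probe well above background on all 4 arrays, with differences between the shRNAs from -0.59 for PECAM1 to 0.71 for COL1A1, and their part in the results was not tested.

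Promoter stretches that match the p53 motif are shown for the members in which the search found them. A match is one of letters only, and binding was not measured. RefSeq start sites in GRCh38.p14 gave 300-base promoter windows, reaching from 250 bases before to 50 bases after the start, for 7 of the 9 members in 13 windows. Both strands were searched for the p53 decamer and for pairs of decamers in which at least 18 of 20 letters match, at least 8 in each decamer including the C and G of its core, at most 13 bases apart. A full match to the decamer lay in 1 member window, which belongs to SESN1, and 6.63% of all 35116 windows hold such a match. A pair lay in 2 overlapping windows of MDM2, against 2.93% of all windows. The match of SESN1 starts 49 bases before a start site on the minus strand of chromosome 6 (chr6:109009018-109009047), and that of MDM2 starts 94 bases before a start site on the plus strand of chromosome 12 (chr12:68808918-68808947). Capitals mark the decamer of SESN1 and the pair of decamers of MDM2, 5′ to 3′.
SESN1 promoter: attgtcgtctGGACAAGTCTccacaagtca
MDM2 promoter: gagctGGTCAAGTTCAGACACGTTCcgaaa
The windows of CDKN1A, CDKN1B, CDKN2B, GADD45B and ZMAT3 held no match, which says only that these letters are not within them.

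With the ALKBH3 shRNA, ZMAT3 was lower and GADD45B higher at both time points. MDM2 was lower by a mean of 0.36 and CDKN2B higher by a mean of 0.40, also at both time points. The arms overlapped for CDKN2B and, on the probe printed in 10 spots, for MDM2. The 3 CDK inhibitors, GADD45A, SESN1 and TP53INP1 differed from their controls by 0.51 at most on the log2 scale (CDKN2B at 96 h), and their arms overlapped on the brightest probe of each. On the brightest probe of each gene, the levels with the ALKBH3 shRNA all lay outside those with the control shRNA for 3 of the 9 members. Of all genes tested, 36.4% did so. For 1 member they were higher (17.4% of all genes) and for 2 lower (19.1%). ZMAT3 was the only member at least 1.5-fold lower at both time points, as were 0.969% of all genes, and 0 members were at least 1.5-fold higher, as were 2.65%. The study's cutoffs were a 2-fold change and a p below 0.05, taken here as an unadjusted limma p, since the study does not say whether it was adjusted. They were met by 0 members and by 1.27% of all genes. Over the 9 members the median log2 difference was 0.08, beside -0.003 over all genes, but it turned to -0.03 with normexp background correction, -0.02 with the authors' normalized values and -0.0024 without the control array at 96 h.

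**Figure D1:**
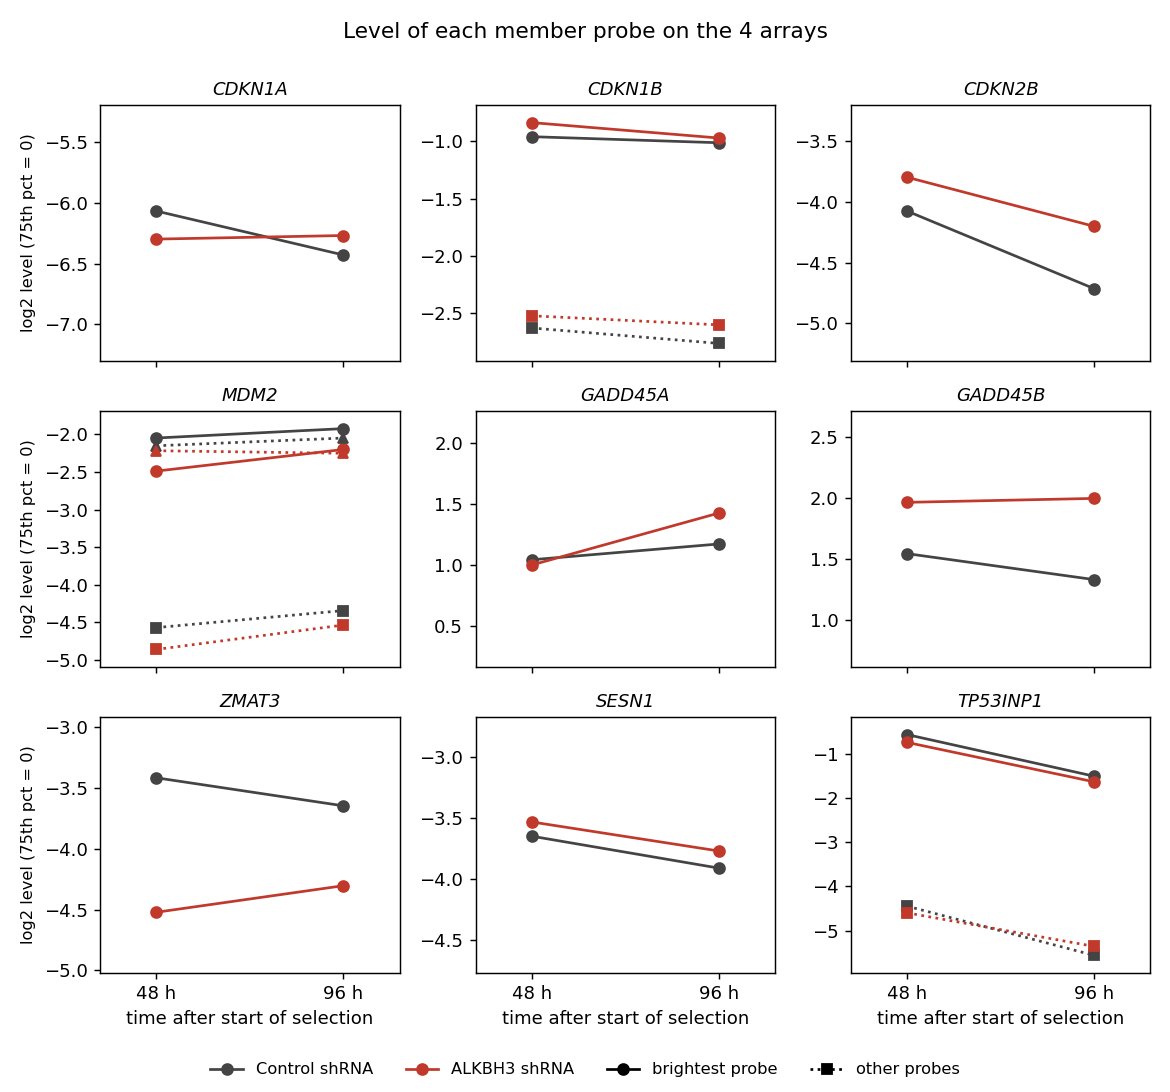
Log2 level relative to the array's 75th percentile (y axis, not the same range in each panel) at 48 h and 96 h for the 13 probes of the 9 genes, with 1 point per array, grey for the control shRNA and red for the ALKBH3 shRNA, solid for the brightest probe of a gene and dotted for its other probes. The red line lies below the grey one at both times for ZMAT3, all MDM2 probes and the brighter TP53INP1 probe. It lies above for GADD45B, CDKN2B, SESN1 and both CDKN1B probes. The lines of CDKN1A, GADD45A and the dimmer TP53INP1 probe cross.

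ZMAT3 encodes a zinc finger protein that binds RNA and is a known p53 target. Its level was -3.41 and -3.65 with the control shRNA at 48 h and 96 h and -4.52 and -4.30 with the ALKBH3 shRNA. Both knockdown arrays were thus lower than both controls. The difference was -1.11 at 48 h and -0.66 at 96 h, a level 2.15-fold and 1.58-fold lower, with a mean of -0.88 ± 0.32 (SD, n = 2 time points). This placed ZMAT3 at rank 68 from the lowest of the 14556 genes. The probe is dim but was well above background on all 4 arrays, with intensities of 202 and 187 in the controls and 99.5 and 121 after knockdown over a local background between 24.5 and 29. Normexp background correction gave a smaller difference of -0.62.

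The ZMAT3 probe was printed in 10 spots, which are technical repeats within an array and not samples. On the control arrays the spots lay between -3.52 and -3.31 at 48 h and between -3.76 and -3.54 at 96 h. On the ALKBH3 arrays, after the loss of 1 spot on each by the software's flags, they lay between -4.61 and -4.42 at 48 h and between -4.45 and -4.07 at 96 h. No spot of a knockdown array reached the range of the controls. The spot SD, which measures technical error within an array only, was between 0.0653 and 0.115. With the time point as a block, 4.46% of all genes passed the limma adjusted threshold of 0.05, 1.5% as lower with the ALKBH3 shRNA and 2.96% as higher. Without the block 0 genes did, with 1213 (8.33%) at an unadjusted limma p below 0.05 in that fit. These shares describe all genes. No call is given for ZMAT3, since the same contrast guided its choice.

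**Figure D2:**
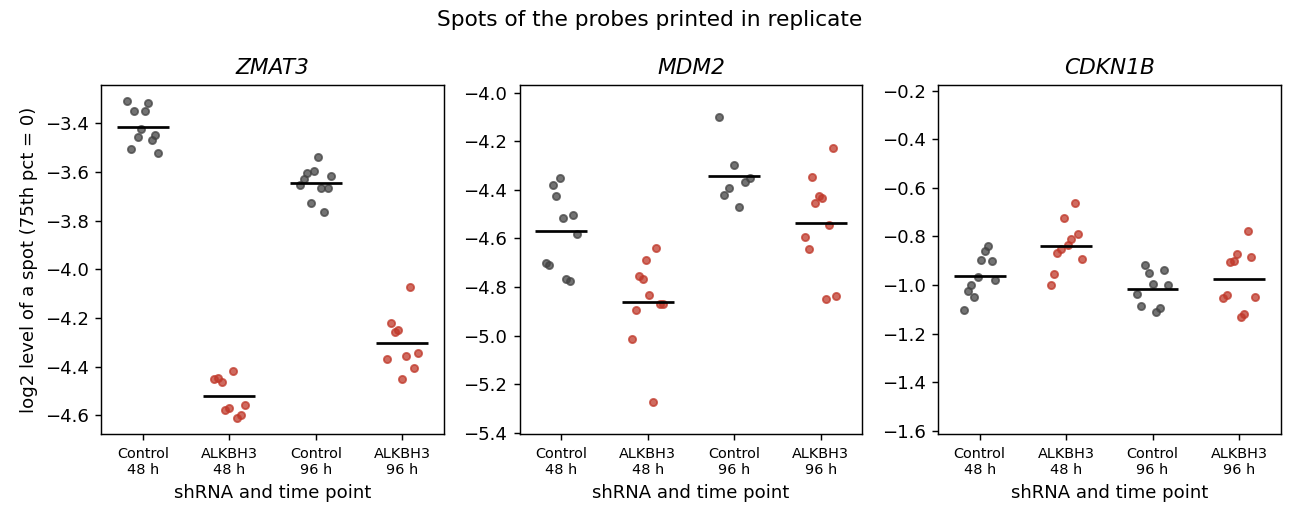
Log2 level of each unflagged spot (y axis, relative to the array's 75th percentile, same span in each panel) for the 3 member probes printed in 10 spots, by shRNA and time point, with bars at the mean of the spots of an array. The spots of ZMAT3 on the ALKBH3 arrays, at -4.07 and below, lie under all control spots, at -3.76 and above, whereas those of MDM2 and CDKN1B overlap between the arms.

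The genes whose 4 centred levels were closest to those of ZMAT3, by Euclidean distance over the 4 arrays, were NUMBL at 0.109, FAM78A at 0.116, GOLGA6L6 at 0.149, TECPR2 at 0.149 and JMJD1C-AS1 at 0.165. NUMBL, for instance, differed by -1.01 at 48 h and -0.72 at 96 h. None of these 5 genes was on the list of other p53 targets used here, of which 36 were among the 14556 genes tested. So short a list would rarely hold any of 5 genes, and nothing is read from this. The 5 were also picked by the same levels that gave the knockdown difference of ZMAT3.

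MDM2, the ligase of p53, was measured by 3 probes. The brightest read -2.05 and -1.92 with the control shRNA at 48 h and 96 h and -2.49 and -2.20 with the ALKBH3 shRNA. Both knockdown arrays were lower than both controls, by 0.44 at 48 h and 0.28 at 96 h on the log2 scale, and the mean difference was -0.36 ± 0.11 (SD, n = 2 time points), a level 1.28-fold lower. With normexp background correction it was -0.17. The probe printed in 10 spots gave a mean difference of -0.24 ± 0.07 and the third probe -0.13 ± 0.10. All 3 probes therefore had the same direction at both time points, with sizes that differed. On the probe printed in 10 spots the arms overlapped, since the ALKBH3 array at 96 h (-4.54) lay above the control array at 48 h (-4.57). The spot SD of the replicated probe, between 0.121 and 0.201, stood beside differences of -0.29 at 48 h and -0.19 at 96 h.

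GADD45B and GADD45A encode small stress proteins that bind PCNA, CDK1 and MAP kinase kinase kinases. GADD45B had a level of 1.54 and 1.33 with the control shRNA at 48 h and 96 h and of 1.97 and 1.998 with the ALKBH3 shRNA. The 2 knockdown arrays were higher than both controls. The difference was 0.42 at 48 h and 0.67 at 96 h, with a mean of 0.55 ± 0.17 (SD, n = 2 time points), a level 1.46-fold higher. This difference stayed between 0.44 and 0.65 under every alternative run. The level of GADD45A was 1.04 and 1.17 with the control shRNA and 0.9995 and 1.43 with the ALKBH3 shRNA. Here the arms overlapped, and the difference was -0.04 at 48 h and 0.25 at 96 h, with a mean of 0.11 ± 0.21, which turned to -0.02 with normexp background correction and with the authors' normalized values. GADD45G, the remaining gene of the family, was too dim to be tested.

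Of the CDK inhibitors among the members, CDKN2B had the largest mean difference and CDKN1A could barely be measured. CDKN1A, the inhibitor that p53 induces most directly, was at the detection limit: its probe had intensities of 32.1 and 27.1 with the control shRNA at 48 h and 96 h and 29.0 and 31.0 with the ALKBH3 shRNA, over a local background between 24 and 28. It was not well above background with the control shRNA at 96 h and was tested only because both ALKBH3 arrays passed. Its levels of -6.07, -6.43, -6.30 and -6.27 in the same order overlapped between the arms, and its mean difference was -0.04 ± 0.28 (SD, n = 2 time points). A fall in CDKN1A could therefore hardly be seen at this signal. Neither ALKBH3 array, at 29.0 and 31.0, was brighter than the control array at 48 h, at 32.1. How well this probe would report a rise was not tested.

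CDKN1B, bright and printed in 10 spots, read -0.96 and -1.01 with the control shRNA at 48 h and 96 h and -0.84 and -0.97 with the ALKBH3 shRNA. The mean difference was 0.08 ± 0.06 (SD, n = 2 time points), and the arms overlapped. On its other probe, at -2.63 and -2.76 against -2.52 and -2.60, both ALKBH3 arrays were higher than both controls, by 0.13 ± 0.04. CDKN2B read -4.08 and -4.72 with the control shRNA and -3.80 and -4.20 with the ALKBH3 shRNA. It was higher after knockdown by 0.28 at 48 h and 0.51 at 96 h, with a mean of 0.40 ± 0.17, but the knockdown array at 96 h lay below the control array at 48 h. Leaving out 1 array put the mean difference of CDKN2B anywhere between 0.08, without the control array at 96 h, and 0.72, without the control array at 48 h, since the comparison then mixes shRNA with time.

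The other 4 CDK inhibitors of these families were all tested and had a median difference of -0.30, which ran from -0.44 without the control array at 96 h to -0.15 without the control array at 48 h. CDKN2A, which encodes p16 and ARF from overlapping transcripts next to CDKN2B on chromosome 9, had a level of 3.70 and 3.41 with the control shRNA and 3.098 and 2.90 with the ALKBH3 shRNA. Its mean difference of -0.55 passed the threshold only with the time point as a block (limma adjusted p = 0.0452) and not without it (0.495). Relatives of members were added after their values were seen, so these p-values only describe CDKN2A. CDKN2A and CDKN2B, neighbours on the chromosome, thus differed in opposite directions. CDKN1C (p57) differed by -0.45, CDKN2D by -0.16 and CDKN2C by -0.06, and none of these 3 passed in either fit.

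SESN1 encodes a sestrin, which restrains the mTORC1 kinase, and TP53INP1 a nuclear protein linked to cell death and autophagy. SESN1 read -3.65 and -3.91 with the control shRNA at 48 h and 96 h and -3.53 and -3.77 with the ALKBH3 shRNA, a mean difference of 0.13 ± 0.02 (SD, n = 2 time points). The arms overlapped because the time points differed by more than the shRNAs, and with the authors' normalized values the difference was -0.07. The brighter probe of TP53INP1 read -0.57 and -1.51 with the control shRNA and -0.75 and -1.64 with the ALKBH3 shRNA, a mean difference of -0.15 ± 0.04. Leaving out 1 array put it between -0.62, without the control array at 96 h, and 0.32, without the control array at 48 h. Its dimmer probe gave -0.15 at 48 h and 0.20 at 96 h, so no direction was shared by both probes.

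**Figure D3:**
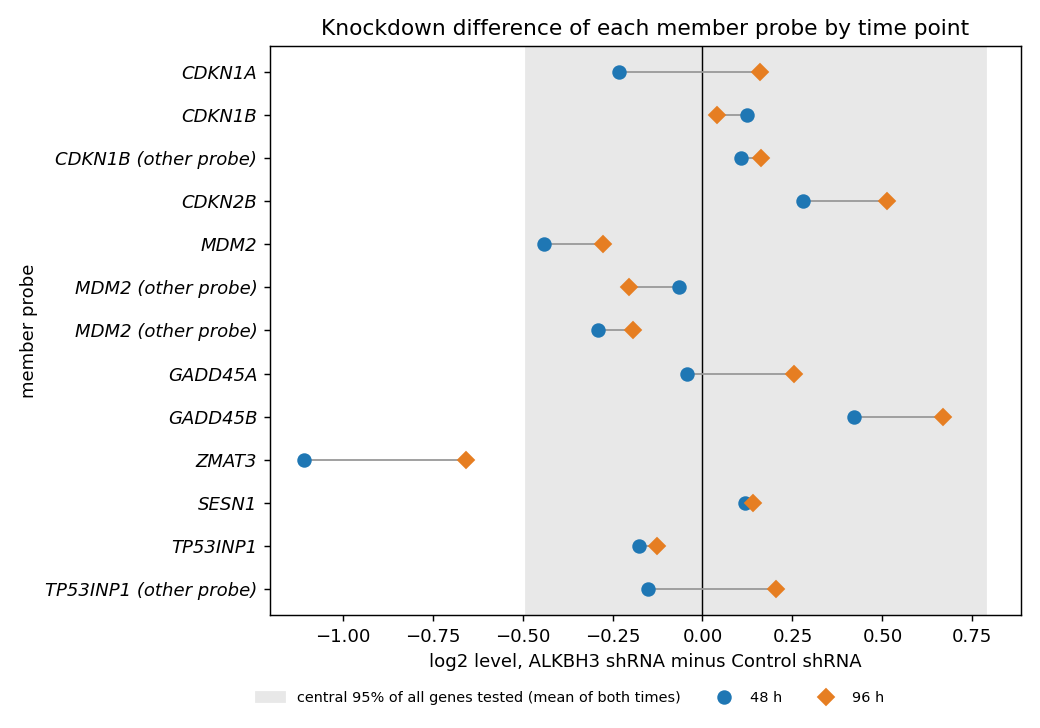
Difference in log2 level between the ALKBH3 and the control shRNA (x axis) at 48 h (circles) and 96 h (diamonds) for each of the 13 probes, joined by a line, with the central 95% of the mean differences of all 14556 genes in grey, from -0.49 to 0.79. ZMAT3, at -1.11 and -0.66, is the only member outside the grey band.

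The members were set beside 40 other genes known as p53 targets, of which 38 had a probe and 36 were tested. Of these, 12 were higher and 13 lower with the ALKBH3 shRNA at both time points and 11 differed in sign, and their median difference was 0.01, beside -0.003 for all genes. Put as shares, 33.3% were higher and 36.1% lower at both time points, compared with 34.6% and 35.6% of all genes tested. The differences ran from -0.48 for APAF1, the scaffold of the apoptosome, to 1.03 for TRIM22, which interferon also induces and which was 2.08 higher at 48 h and 0.02 lower at 96 h. None met the study's 2-fold cutoffs. TNFRSF10C, a decoy receptor for TRAIL, was not well above background on the control arrays (mean level -6.55) and had a mean of -5.69 on the ALKBH3 arrays, at least 1.8-fold higher. It entered the fit only through the arm in which it was bright, so no p is given for it.

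The genes related to members by family behaved unevenly. SESN2, the sestrin next to SESN1, differed by 0.28, MDM4, the partner of MDM2, by 0.12, and TP53INP2 by -0.78, and none passed in either fit. Among the regulators of p53, the kinase HIPK2 was lower by 0.72 at 48 h and 0.56 at 96 h. It passed the limma threshold only with the block (adjusted p = 0.0423) and not without it (0.348). The list was chosen with earlier results of these data known, so these p-values only describe HIPK2. The 19 tested cyclins, CDKs, pocket proteins, E2F factors and cell cycle partners (SKP2, CKS1B and PCNA) had a median difference of 0.01, from -0.38 for CDK6 to 0.39 for CCND3, and 0 passed with or without the block. That median ran from -0.26 without the control array at 48 h to 0.33 without the control array at 96 h.

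Between 48 h and 96 h of selection, 2 of the 9 members fell and 0 rose, as judged by limma with the shRNA as a covariate. Of all genes tested, 6.94% fell and 5.84% rose by the same test, and 12.8% did either. Both arrays of a time point were on 1 slide, so time and slide cannot be told apart. The test also leaned on the pooled spread of all genes: without the shRNA as covariate, or with dim probes kept in, 0 genes passed, including both members, although 35% of all genes had an unadjusted limma p below 0.05 in the fit reported here.

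TP53INP1 fell the most. Its level dropped by 0.94 with the control shRNA and by 0.89 with the ALKBH3 shRNA, a log2 change of -0.92 ± 0.08 (SE, 2 arrays against 2), which is 1.89-fold lower at 96 h (limma adjusted p = 0.0236). The dimmer probe changed by -1.11 and -0.76 in the 2 arms. Both probes therefore had the lower level at 96 h in both arms. CDKN2B fell as well, by 0.64 with the control shRNA and by 0.40 with the ALKBH3 shRNA, a log2 change of -0.52 ± 0.09 (SE, 2 arrays against 2, limma adjusted p = 0.0418). That call was close to the threshold, with an adjusted p of 0.0507 after quantile normalization and 0.05004 after median centring.

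The remaining members did not pass. SESN1 was lower at 96 h by 0.26 and 0.24 in the control and ALKBH3 arms, a change of -0.25 ± 0.08 (SE; limma adjusted p = 0.0982), and it passed with normexp background correction (0.0332) and with the authors' normalized values (0.0262). GADD45A was higher by 0.13 and 0.43 (limma adjusted p = 0.145) and MDM2 by 0.13 and 0.29 (0.171), but for MDM2 normexp correction turned the change to -0.07. CDKN1A, CDKN1B and GADD45B changed by between -0.17 and -0.09 on average, with limma adjusted p-values of 0.381, 0.440 and 0.540. ZMAT3, the member with the largest difference between the shRNAs, had a mean change of -0.01 (limma adjusted p = 0.978), being lower by 0.23 at 96 h with the control shRNA and higher by 0.22 with the ALKBH3 shRNA.

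**Figure D4:**
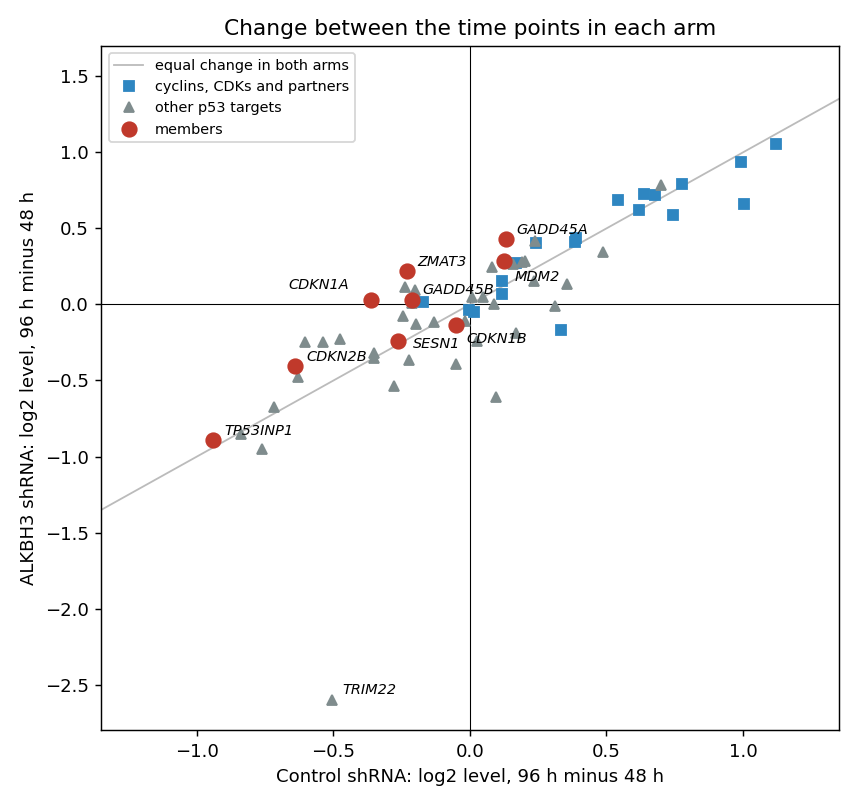
Change in log2 level from 48 h to 96 h with the control shRNA (x axis) and with the ALKBH3 shRNA (y axis) for the 9 members (red circles), the 36 other p53 targets (grey triangles) and the 19 cyclins, CDKs and partners (blue squares), 1 point per gene, with the line of equal change. TP53INP1 (-0.94 and -0.89) and CDKN2B (-0.64 and -0.40) lie at the lower left and most cyclins and CDKs at the upper right, and TRIM22 lies alone at the bottom.

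Of the 19 cyclins, CDKs and partners tested, among them the E2F factors, 11 rose and 0 fell by 96 h and 8 did not pass, with a median change of 0.41 beside -0.01 for all genes. E2F2 rose by 1.09 and CCNA2, the cyclin of S phase, by 0.96 (limma adjusted p = 0.0236 for each), CDK1 by 0.78 (0.0237) and PCNA, the sliding clamp of DNA synthesis, by 0.62 (0.0262). CDK4, a kinase that CDKN2B binds, rose by 0.41 (0.0432), whereas CDK6 changed by -0.02 (0.858). Among the 36 other p53 targets, where 5.84% of all genes rose and 6.94% fell, 2 rose, POLH by 0.74 and AEN by 0.42, and 4 fell, SESN2 by 0.84, GDF15 by 0.86, the cell death gene BBC3 (PUMA) by 0.70 and the antiproliferative gene BTG2 by 0.55. The inhibitor CDKN1C fell by 0.55 (limma adjusted p = 0.0299) and TP53INP2 by 0.88 (0.0412), in the same direction as CDKN2B and TP53INP1. The inhibitors CDKN2A, CDKN2C and CDKN2D changed by -0.25, 0.07 and 0.02 and did not pass (limma adjusted p = 0.110, 0.610 and 0.876). Nor did MDM4, at 0.18 (0.189). The DNA damage kinases CHEK1 and CHEK2 rose by 0.70 and 0.48, whereas ATM and ATR changed by -0.10 and -0.01 (limma adjusted p = 0.448 and 0.956). Of the 11 tested genes of the p53 family and its regulators, which include these kinases, 3 rose and 0 fell. All these calls over time, too, were lost without the covariate and with dim probes kept in.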

How the data were processed

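The authors extracted spot intensities with Agilent Feature Extraction (version 10.7.3.1 per the file headers), which subtracted background and removed spatial trends on each array. The authors also deposited log2 values normalized between the arrays, used here as an alternative. The deposited files hold no gene name column, so probes were named through their RefSeq accessions (24910 of 34127 probes, 19102 genes, table of GRCh38.p14). Spots flagged by the software (180 to 379 per array) were removed, log2 intensities were set relative to the 75th percentile of their array, and the spots of each probe averaged. Probes well above background on both arrays of an shRNA, in at least 0.5 of their spots, were kept, and the brightest of them stood for a gene. R 4.3.3, limma 3.58.1 (lmFit, eBayes) and the data.table package (1.17.8) were used, and p-values were adjusted by the Benjamini-Hochberg method over 14556 genes. The knockdown was fitted without a covariate (the methods name limma and no design) and time with the shRNA as covariate. Arrays were paired by the time point in their titles. Deviations of the 2 arrays at 48 h from the mean of their shRNA correlated at 0.703 over the genes tested. Those at 96 h are the same values with the sign reversed and add nothing. Scripts were tested on simulated data. Alternatives were other backgrounds, scalings, filters, probe rules and covariates, the methods' t-test, and leaving out each array. The members and gene lists were chosen with earlier results of these data known. Named genes are the members, ALKBH3, list genes past the 2-fold cutoffs or the adjusted threshold with the time block, otherwise list extremes, and the 5 genes most like ZMAT3. Relatives of members, markers and genes named for their change over time were added after their values were seen. Promoter sequences are from RefSeq (GRCh38.p14). Some genes of the marker and regulator lists are not reported here.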

Additional observations from a re-analysis of the deposited data

Results flagged for a closer look

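CDKN1A differed between the shRNAs by -0.23 (log2) at 48 h and 0.16 at 96 h, and GADD45A by -0.043 at 48 h and 0.25 at 96 h, so that both genes had opposite signs at the 2 time points. The difference between the time points was not tested, since each value compares 1 array with 1 array. The probe of CDKN1A was not well above background with the control shRNA at 96 h. The median size of the knockdown difference over all genes tested was 0.145 at 48 h and 0.14 at 96 h.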

How the results depend on the processing

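With the time point as a replicate block, 649 genes passed the adjusted threshold for the knockdown against 0 without it. Genes past the 2-fold cutoffs numbered 151 higher and 34 lower with the ALKBH3 shRNA; the higher ones numbered 63 with normexp, 88 with the authors' normalized values, 276 with no filter, 100 with the filter on all 4 arrays and 45 by the methods' t-test, and 146 to 321 when an array was left out, and the lower ones 22 with normexp, 56 with no filter, 15 by the t-test and 30 to 92. For time, 850 genes rose and 1010 fell, against 1480 and 2126 with normexp, 1537 and 1969 with the authors' values, 1181 and 817 with median centring, and 0 and 0 with no filter or without the shRNA covariate. The signs of MDM2 over time (-0.0732 with normexp) and of SESN1 after knockdown (-0.0716 with the authors' values) turned, and uncalled signs turned too, after knockdown for SESN1 and GADD45A in 3 settings each (for SESN1 these include the authors' values and normexp), TP53INP1 in 2 and CDKN1A in 1, and over time for ZMAT3 in 5, CDKN1A in 3 and GADD45B in 2. The median difference of the other p53 targets was between -0.0493 and 0.0696 over the alternatives, and was -0.0465 and -0.0493 without the ALKBH3 array at 48 h and without the control array at 96 h. That of all genes, -0.0030, turned to 0.0062 with no filter, 0.0032 with the mean over probes and 0.0040 without the ALKBH3 array at 48 h, and ran from -0.0122 to 0.0040 when an array was left out. TP53INP1 fell over time with an adjusted p of 0.124 with no filter and 0.131 without the covariate, and CDKN2B with 0.138 and 0.306, and over all alternatives the limma adjusted p of CDKN2B ran from 0.0132 to 0.306. ZMAT3 had differences between -0.998 and -0.620. With an array left out the change over time could be computed but not tested, since the shRNA covariate leaves no residual degrees of freedom. The sign turns over time counted above include these untested values. Signals near background, as for CDKN1A, limit what could be seen.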
